A study of Homo sapiens with 3 samples.

Results

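SNORD20 (entry U20), SNORD82 (entry U82, also called Z25) and SNORA75 (entry U23) are the 3 small nucleolar RNAs (snoRNAs) whose genes lie in introns of NCL, the gene of nucleolin. They were picked by entry name out of 259 snoRNAs with reads in HEK293, a long-established line of human embryonic kidney cells. Small RNA was sequenced in 3 libraries that form 1 group, with no treatment named in the labels. No label states that they stem from separate cultures, so p-values here cover only library-to-library spread, possibly technical. Libraries 1, 2 and 3 held 19980, 11951 and 19078 reads in snoRNA orientation, called sense reads here, and 841 of these 51009 reads lay on the 3 nucleolin-hosted snoRNAs.

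Nucleolin is an abundant nucleolar protein of rRNA transcription and ribosome assembly, and its introns carry snoRNAs that are released when the spliced intron is debranched and trimmed from its ends. SNORD20 and SNORD82 belong to the box C/D class, which guides 2′-O-methylation of rRNA. Their boxes C and D bind the core proteins, and the bases just before box D or the inner box D′ pair with the target. SNORA75 belongs to the box H/ACA class, which guides pseudouridylation and ends 3 bases after an ACA triplet. All 3 are known as guides for 18S rRNA, the RNA of the small ribosomal subunit.

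In GENCODE 29 (GRCh38) all 3 genes lie on the minus strand of chromosome 2, within introns of the 14-exon transcript NCL-201. SNORD82 is in intron 5 (chr2:231460371-231460440), SNORD20 in intron 11 (chr2:231456444-231456523) and SNORA75 in intron 12 (chr2:231455800-231455936). The GENCODE sequences are shown 5′ to 3′, since the read ends below are placed against them. Capitals mark ATGATGA (a box C sequence) and CTGA (the box D sequence) in the first pair, and positions 115 to 137 in SNORA75.
SNORD20: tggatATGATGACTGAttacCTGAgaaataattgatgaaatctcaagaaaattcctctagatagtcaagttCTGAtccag
SNORD82: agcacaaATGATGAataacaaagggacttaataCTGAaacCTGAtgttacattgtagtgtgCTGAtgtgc
SNORA75: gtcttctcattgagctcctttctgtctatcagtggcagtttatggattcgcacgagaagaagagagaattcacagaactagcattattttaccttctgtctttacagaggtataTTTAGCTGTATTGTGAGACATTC
Only the strand shown was searched for motifs. CTGA occurred in 98.2% of 275 SNORD sequences of GENCODE and at 2 or more places in 68.4%, and ATGATGA in 53.1%. SNORD20 and SNORD82 each held ATGATGA once and CTGA 3 times, with no overlap between them.

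Positions were counted from 1 at the 5′ end of the entry. For SNORD20 and SNORA75 the highest position seen, 80 and 137, equalled the GENCODE length. For SNORD82 reads reached position 72, past the 70 bases of GENCODE. RefSeq gives SNORD82 a 75-base interval with 2 more bases at the 5′ end and 3 at the 3′ end. The sources used here do not say which sequence the authors aligned to. Positions of SNORD82 were counted along the RefSeq interval here, because they run past 70 and because the distances of the read ends from the boxes are then close to those of other box C/D snoRNAs. The distances below therefore went into that choice and are no separate result. With this numbering the commonest first positions, 6 and 5, lay 4 and 5 bases before ATGATGA, and the commonest last positions, 69 to 72, lay 2 to 5 bases after the last CTGA. Counted along the GENCODE sequence, the distances would be 2 and 3 bases before and 4 to 7 bases after. In 21 other box C/D snoRNAs the highest position equalled the GENCODE length, with box C near the start and CTGA near the end. Their leading first position had a median distance of 5 bases before box C (quartiles 4 and 5), and the leading last position 4 bases after box D (quartiles 2 and 5). Positions there cannot lie outside the entry, so the annotated limits bound these distances.

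SNORD82 was the most abundant of the nucleolin-hosted snoRNAs, SNORD20 came next and SNORA75 was lowest, in each of the 3 libraries. SNORD82, a methylation guide, had 162, 153 and 199 sense reads in libraries 1, 2 and 3. These were 0.811%, 1.28% and 1.04% of the sense snoRNA reads of each library. The exact (Clopper-Pearson) 95% intervals were 0.691% to 0.945%, 1.09% to 1.5% and 0.904% to 1.20%. Its mean share was 1.04% ± 0.23 (SD, n = 3), and the intervals of library 2, the highest, and library 1, the lowest, did not overlap.

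SNORD20, the other methylation guide, had 101, 44 and 96 sense reads in the same order, equal to 0.506%, 0.368% and 0.503%. The intervals were 0.412% to 0.614%, 0.268% to 0.494% and 0.408% to 0.614%, so they overlapped between all libraries, and the mean was 0.459% ± 0.079 (SD, n = 3). SNORA75, the pseudouridylation guide, had 23, 24 and 39 reads, or 0.115%, 0.201% and 0.204%. Its intervals, 0.0730% to 0.173%, 0.129% to 0.299% and 0.145% to 0.279%, overlapped as well, and its mean was 0.173% ± 0.051 (SD, n = 3). Together the 3 took 1.43%, 1.85% and 1.75% of sense reads, a mean of 1.68% ± 0.22 (SD, n = 3). By mean share SNORD82 ranked 27 and SNORD20 56 of 258 snoRNAs, both above the box C/D median of 0.334%. SNORA75 ranked 114, and 11 among 92 box H/ACA snoRNAs, whose median was 0.0349%. The reads carry no molecular identifiers, so intervals cover counting error only. Between libraries the shares varied 1.37-fold for SNORD20, 1.58-fold for SNORD82 and 1.78-fold for SNORA75, against a median of 1.88-fold over 135 box C/D and 3.06-fold over 64 box H/ACA snoRNAs seen in all libraries. Those medians include snoRNAs with far fewer reads than the members, where counting error alone widens the fold. They therefore do not show that the members were steadier, and folds at equal read counts were not compared.

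**Figure D1:**
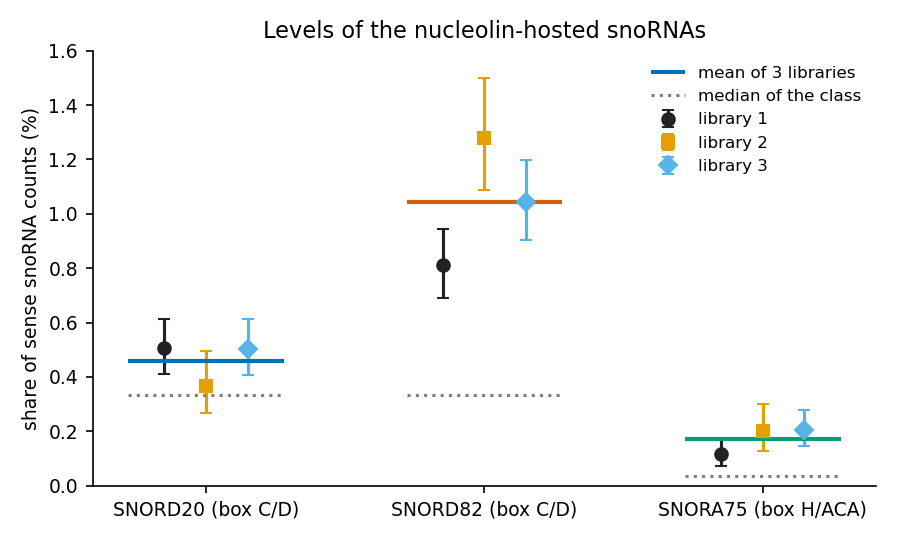
Share of sense snoRNA counts (%) in each of the 3 libraries, with exact 95% intervals as bars, for the 3 nucleolin-hosted snoRNAs. Coloured lines are means over libraries and dotted grey lines the median of the class. SNORD82 lies highest in every library, at 0.811% to 1.28%, and SNORA75 lowest, at 0.115% to 0.204%.

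Per 100 positions of the entry, the mean share was 1.45% ± 0.33 for SNORD82, 0.574% ± 0.098 for SNORD20 and 0.127% ± 0.037 for SNORA75 (SD, n = 3). On this scale they ranked 26, 55 and 124 of 258 snoRNAs with sense reads. By mean log2 ratio of counts per position SNORD82 exceeded SNORD20 2.50-fold and SNORA75 11.5-fold, and SNORD20 exceeded SNORA75 4.58-fold. A read of a whole molecule counts once whatever its length, so dividing by positions widens these gaps. On counts alone the same excesses were 2.25-fold, 6.03-fold and 2.68-fold. Their log2 ratios were 1.17 ± 0.56, 2.59 ± 0.23 and 1.42 ± 0.64 (SD, n = 3), in that direction in 3 of 3 libraries. For each of these 3 pairs an exact permutation test that flips the signs of the log2 ratios (two-sided) gave p = 0.25, also after Benjamini-Hochberg adjustment over the 3 pairs, which is the smallest p that 3 libraries allow. The SNORD82 to SNORD20 ratio of counts was 1.6, 3.48 and 2.07 in libraries 1, 2 and 3, so its size rested most on library 2. Without that library its log2 ratio was 0.86.

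Each methylation guide had the same commonest read length in every library, while SNORA75 was split between long and short reads. Whether most SNORD82 reads were near full length depends on the length taken for it, as given below. SNORD20 reads were most often 80 nt long in each of the 3 libraries, with medians of 79, 79 and 80 nt. SNORD82 reads were most often 64 nt long, again in each library, with medians of 65, 64 and 65 nt. Of 86 SNORA75 reads, 36 spanned at least 90% of the entry and 30 were up to 40 nt long, with the rest in between. The medians were 73, 24.5 and 134 nt, and 21 nt was commonest in library 2 against 137 nt in libraries 1 and 3.

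**Figure D2:**
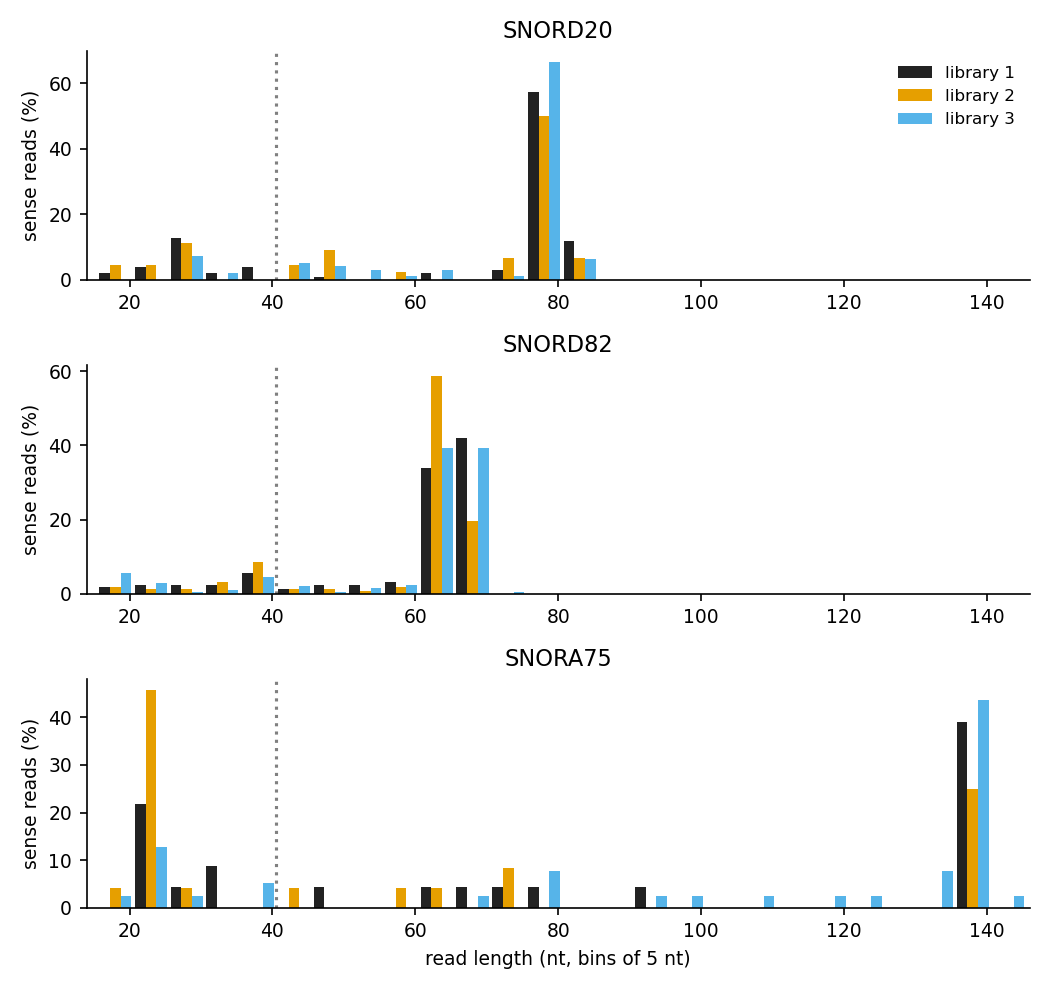
Read lengths (nt, bins of 5 nt) as a percentage of the sense reads of each snoRNA, by library, and the dotted line marks 40 nt. SNORD20 peaks near 80 nt and SNORD82 near 64 nt in every library, while SNORA75 has a peak near 137 nt and a second near 21 nt that is highest in library 2.

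Reads of up to 40 nt, called short here, made up 24.8%, 20.5% and 9.38% of SNORD20 reads (25, 9 and 9 reads). The 95% intervals ran from 16.7% to 34.3%, from 9.80% to 35.3% and from 4.38% to 17.1%. In SNORD82 they made up 14.8%, 16.3% and 14.6% (24, 25 and 29 reads). In SNORA75 they made up 34.8%, 54.2% and 23.1% (8, 13 and 9 reads). The means were 18.2% ± 7.9, 15.2% ± 0.96 and 37.3% ± 16 (SD, n = 3). Over all box C/D snoRNAs library 2 had more short reads, 25.2% against 11.5% and 11.4% in libraries 1 and 3. SNORD82 stayed near 15% there too: its interval in library 2, 10.9% to 23.2%, lay below that of the whole class, 24.4% to 26%. This difference was noticed in the data and was not tested.

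Reads of 20 to 24 nt, the size of miRNAs, were few in the box C/D members, with 4, 3 and 0 reads of SNORD20 and 3, 2 and 6 of SNORD82. A count of 0 among the 96 SNORD20 reads of library 3 allows a share of up to 3.12%, taking 3 counts as the floor, again for counting error only. SNORA75 had 5, 11 and 5 such reads, or 21.7%, 45.8% and 12.8% of its reads. The mean was 26.8% ± 17 (SD, n = 3), against 11.8% ± 10 over all box H/ACA snoRNAs, whose shares of 5.24%, 23.6% and 6.56% were also highest in library 2. Without library 2 the SNORA75 share was 17.3%. Whether the shorter reads of library 2 account for its SNORA75 value was not tested.

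With TMM normalisation, SNORA75 had more short reads relative to the typical snoRNA, and the box C/D members did not pass the test. Most snoRNAs tested were box C/D, and SNORA75 was not tested against its own class alone. In edgeR's quasi-likelihood test of short against longer reads, with library as block and TMM normalisation, the ratio of SNORA75 was higher than that of the typical snoRNA by 1.69 ± 0.41 (log2, SE, n = 3; adjusted p = 0.0263). Its long and short reads numbered 15 and 8, 11 and 13, and 30 and 9 in the 3 libraries. Of 125 snoRNAs tested 19.2% had more short reads by this rule, 14.4% fewer and 33.6% either, and SNORA75 ranked 20 from the top. The SNORA75 call was lost without library 2, where edgeR gave 1.63 with an adjusted p of 0.0953. It also was lost with 1 library size for both size classes, which measures the ratio itself: the value was then -0.81 (edgeR adjusted p = 0.294), toward fewer short than long reads, while the median over all 125 was -2.58. With that scaling SNORD20 (-2.24) and SNORD82 (-2.47) passed toward fewer short reads, with edgeR adjusted p of 0.00105 and 2.6e-07. With TMM SNORD20 had 0.33 ± 0.45 and SNORD82 0.05 ± 0.31 (SE), with edgeR adjusted p of 0.601 and 0.919.

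Over sense reads of all lengths, read ends were concentrated in SNORD20 and spread in SNORD82. In SNORD20 86.1%, 84.1% and 86.5% of sense reads began at position 1, and 48.5%, 45.5% and 63.5% ended at position 80. The span from 1 to 80 had 45, 18 and 56 reads, and that from 1 to 79 had 12, 5 and 9. Position 1 is 5 bases before ATGATGA and position 80 is 5 bases after the last CTGA. Both are also the limits of the entry, so any base beyond them would not show as a position. The limits of the SNORD82 entry are not known, so the spread of ends cannot be compared directly between SNORD20 and SNORD82. Reads whose length differs from their span were 22.9% ± 6.2 of SNORD20, 18.1% ± 2.8 of SNORD82 and 26.9% ± 21 of SNORA75 reads (SD, n = 3). They are called gapped here, and the others ungapped. Some are longer than their span at the limits of the entry, such as 13 SNORD20 reads of 81 nt that span 1 to 80. Gaps, inserted bases and bases past the limits were not told apart.

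SNORD82 reads began at position 6 in 39.5%, 66.7% and 37.7% of cases and at position 5 in 45.1%, 24.8% and 36.2%. They ended at 69 in 29%, 52.3% and 29.6%, at 70 in 19.1%, 18.3% and 17.1%, at 71 in 16.7%, 6.54% and 22.6%, and at 72 in 16%, 2.61% and 17.6%. Start 6 and end 69 were most frequent in library 2, where each was above 50% of reads. In library 1 start 5 was ahead of start 6, and in library 3 the starts were nearly equal. The leading span, 6 to 69, had 31, 63 and 45 reads, while the longest of the common spans, 5 to 72, had 21, 3 and 24 reads. The span from 5 to 70 had 17, 15 and 14 reads. Library 2 also had the largest share of short reads over all snoRNAs, 27.2% against 11.9% and 12.0%, and the part of this in the SNORD82 ends was not tested.

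**Figure D3:**
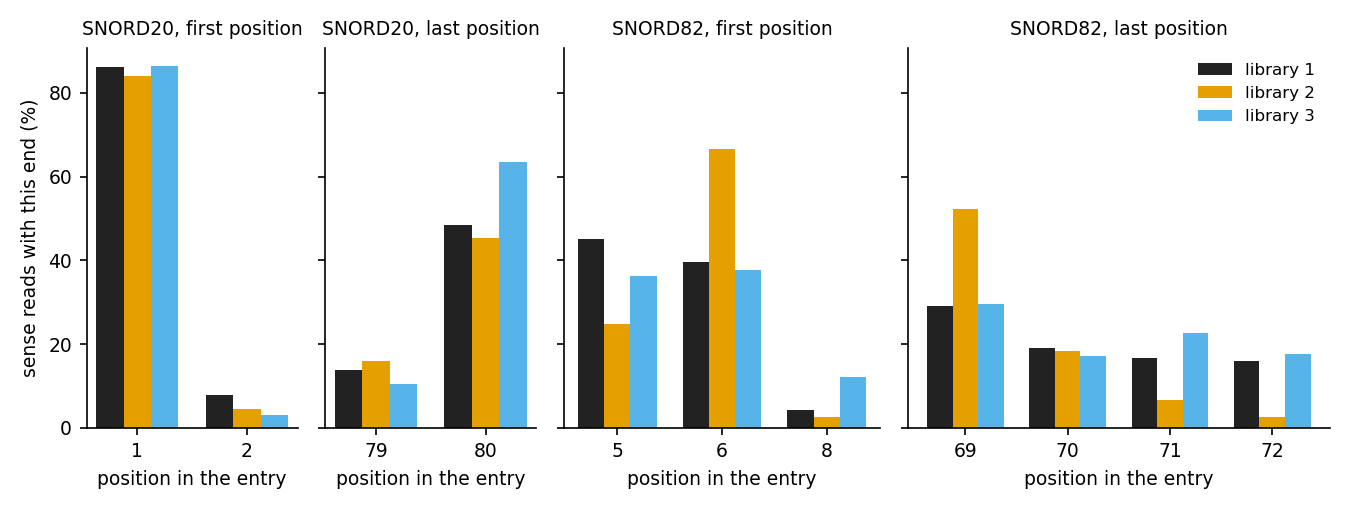
Percentage of sense reads with the given first or last position, by library, for SNORD20 and SNORD82. SNORD20 reads begin at position 1 in 84.1% to 86.5% of cases, while SNORD82 reads are split between starts at 5 and 6 and ends at 69 to 72, with library 2 highest at 6 and 69.

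Whole-molecule reads depend on what is taken as the length. Reads spanning at least 90% of the highest position seen were 68.9% ± 6.6 of SNORD20, 42.2% ± 9.2 of SNORD82 and 39.3% ± 14 of SNORA75 reads (SD, n = 3). The leading SNORD82 read covers 64 of 72 positions and falls just under that limit. When the length was taken as the distance between the lowest and highest position seen, 4 and 72, a choice made after seeing the data, the SNORD82 share was 75.1%. With the RefSeq length it was 9.54%.

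Short reads of SNORD20 came almost entirely from its 5′ end. Of 43 such reads 38 began within the first 3 positions, 3 reached the last positions (77 or later) and 2 touched neither end. The leading short fragment, shown with its CTGA copies in capitals because it stops next to one, ran from position 1 to 26 (chr2:231456498-231456523) with 11, 3 and 1 reads.
SNORD20, 1 to 26: tggatatgatgaCTGAttacCTGAga
It ended 2 bases after an inner CTGA. Library 1 held most of these reads and library 3 only 1.

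SNORD82 gave short reads from both ends. Of 78 such reads 48 began by position 8 without reaching the 3′ end, in libraries 1, 2 and 3 with 15, 19 and 14 reads. Another 29 reached position 69 or later, with 8, 6 and 15 reads, and 1 touched neither end. The leading short span ran from 6 to 41 (chr2:231460402-231460437) with 4, 7 and 4 reads, and the same end was seen from position 5 with 0, 3 and 3 reads.
SNORD82, 6 to 41: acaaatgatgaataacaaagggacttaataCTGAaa
This fragment, too, ended 2 bases after an inner CTGA when positions are counted along the RefSeq interval, and 4 bases after it along the GENCODE sequence. From the 3′ side the commonest piece began at position 54, with 1, 1 and 9 reads in all, so it rests on library 3.

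Among ungapped short reads that begin within 3 positions of the leading start, 50% of 32 SNORD20 reads and 46.5% of 43 SNORD82 reads ended exactly 2 bases after an inner CTGA. Such ends make up 8.70% and 4.35% of the positions where these reads could end. In 7 other box C/D snoRNAs numbered as in GENCODE, with an inner CTGA in reach and at least 10 such reads, the median was 36.1% against 4.35% of positions, and the leading end lay there in 4 of the 7. This measure was chosen after the data were seen and is given as a description, and for SNORD82 it holds only with the RefSeq numbering, itself chosen by box distances.

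**Figure D4:**
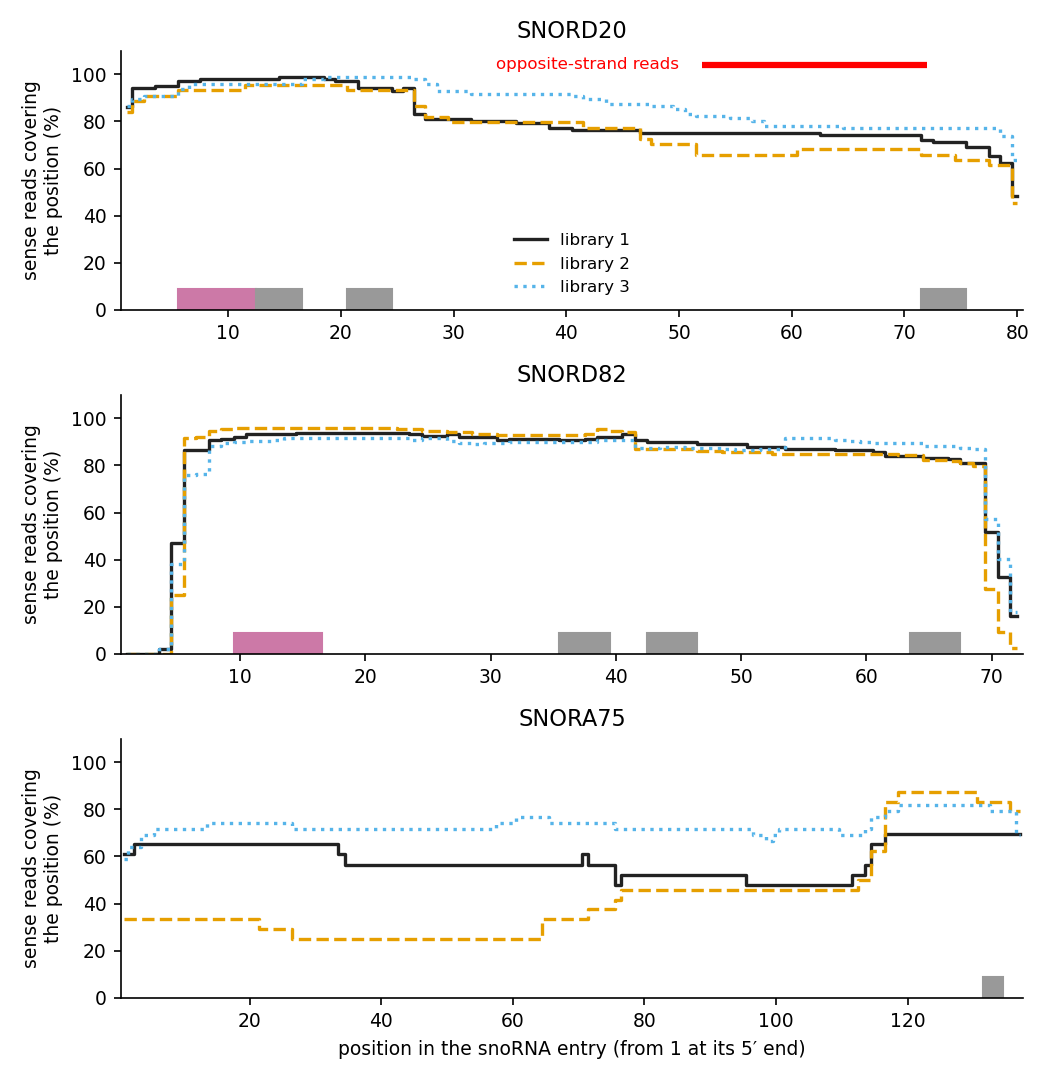
Percentage of sense reads covering each position of the entry, by library. Pink blocks mark ATGATGA, grey blocks CTGA (in SNORA75 the ACA triplet at 132 to 134), and the red bar the positions of reads on the opposite strand of SNORD20. Coverage of SNORD20 steps down after position 26, and that of SNORA75 rises from position 115 on, most in library 2.

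SNORA75 reads began at position 1 in 60.9%, 33.3% and 59.0% of cases, lowest in library 2, and ended at 137, the mature 3′ end, in 69.6%, 79.2% and 69.2%. Most of its short reads came from the 3′ end. Of 30 such reads 24 ended at position 134 or later, with 5, 11 and 8 reads in libraries 1, 2 and 3, while 5 began at the 5′ end and 1 touched neither. The whole molecule, 1 to 137, was the leading span with 9, 6 and 15 reads. The next were 115 to 137 (chr2:231455800-231455822) with 2, 4 and 2 reads and 117 to 137 (chr2:231455800-231455820) with 1, 5 and 2 reads, shown with the ACA triplet in capitals since both keep it and end at the mature 3′ end.
SNORA75, 115 to 137: tttagctgtattgtgagACAttc
SNORA75, 117 to 137: tagctgtattgtgagACAttc
SNORA75B, a copy on chromosome 4 (17320746 to 17320882, minus strand), is 91.2% identical and differs from SNORA75 at 12 of 137 bases, 2 of them within positions 117 to 137. The sources used here do not say how the authors assigned reads between these copies.

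The side of the reads was then compared within each snoRNA. A read counted as 5′ when its midpoint lay before the middle of the snoRNA and as 3′ when it lay after it, and reads centred on the middle were left out. The test was edgeR's quasi-likelihood test with library as block. SNORD20 had 48 5′ and 7 3′ reads in library 1, 22 and 3 in library 2, and 33 and 6 in library 3. Its log2 ratio of 3′ to 5′ reads was -2.66 ± 0.41 (SE, n = 3), with more 5′ reads in 3 of 3 libraries and an edgeR adjusted p of 0.00201. Of 108 snoRNAs tested 39.8% had more 5′ reads by this rule, and 66.7% passed in either direction. SNORD20 kept its call under all alternatives run, with values between -3.13 and -2.18. With only reads spanning at most 50% of the entry, where its 5′ and 3′ reads were 24 and 1, 8 and 2, and 9 and 1, the value was -3.13 ± 0.83 (SE; edgeR adjusted p = 0.00109). Of 44 snoRNAs tested that way 27.3% had more 5′ reads and 50% passed in either direction.

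SNORD82 passed the same test toward 3′, with 31 5′ and 130 3′ reads in library 1, 27 and 125 in library 2, and 24 and 175 in library 3. The log2 ratio was 2.37 ± 0.26 (SE, n = 3; edgeR adjusted p = 0.000729), in 3 of 3 libraries, where 26.9% of the snoRNAs tested had more 3′ reads. This call depended on the length taken for SNORD82 and on how reads were placed. With the RefSeq length of 75 the leading read, 6 to 69, falls on the other side of the middle, and the ratio was -1.22 (edgeR adjusted p = 0.0674). In that setting 25.9% of 108 snoRNAs passed toward 3′, 39.8% toward 5′ and 65.7% in all. With only reads spanning at most 50% it was -0.64 (edgeR adjusted p = 0.435), with 13 and 7, 16 and 5, and 10 and 14 reads on the 5′ and 3′ sides, so library 3 went against the other two. With read ends in place of midpoints it was -0.14 (edgeR adjusted p = 0.884). No side is called for SNORD82 here.

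SNORA75 had 7 5′ and 7 3′ reads in library 1, 2 and 16 in library 2, and 9 and 15 in library 3. The log2 ratio of 1.08 ± 0.59 (SE, n = 3) did not pass, with an edgeR adjusted p of 0.150 and more 3′ reads in 2 of 3 libraries. Its size rested on single libraries: the ratio was 0.43 without library 2 and 1.61 without library 1, and neither passed. With only reads spanning at most 50% the counts were 4 and 7, 2 and 14, and 2 and 8, and SNORA75 passed toward 3′ with 1.79 ± 0.77 (SE; edgeR adjusted p = 0.0452), where 22.7% of 44 snoRNAs tested did. With reads up to 40 nt, a setting added after seeing the data, it had 1.92 and did not pass (edgeR adjusted p = 0.222).

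**Figure D5:**
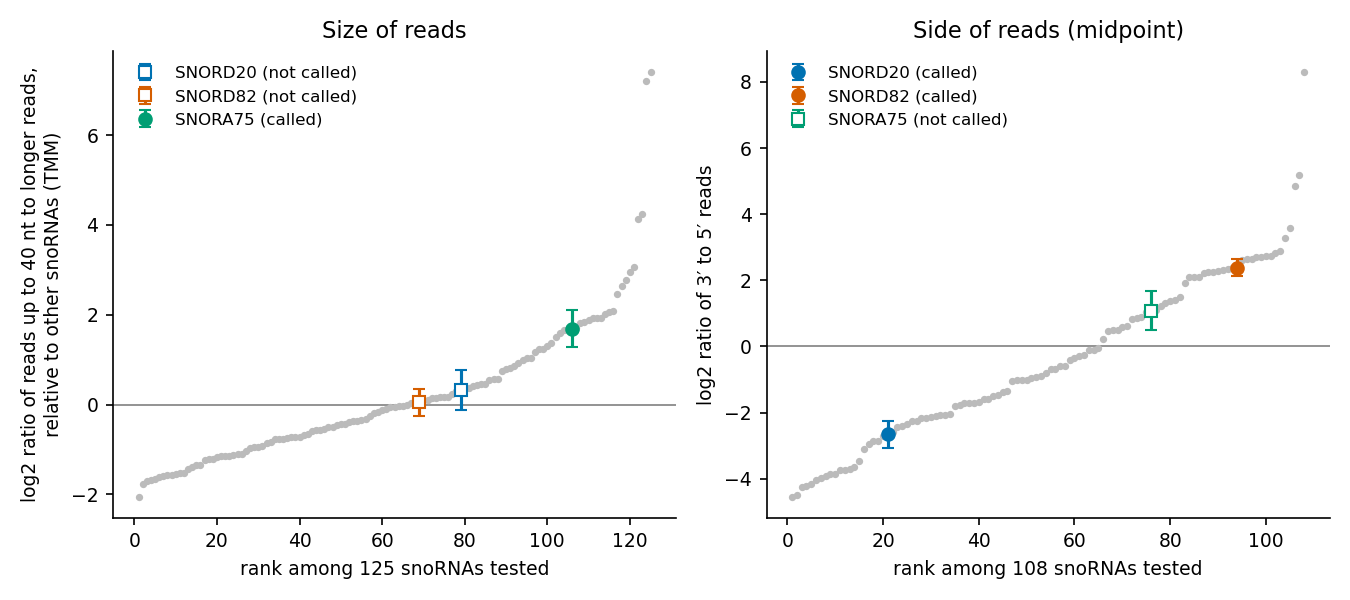
Log2 ratios from edgeR for all snoRNAs tested, in rank order (grey), with the nucleolin-hosted snoRNAs in colour, their SE as bars, and filled circles for those past the threshold of 0.05. Left, short against longer reads relative to other snoRNAs, where SNORA75 is called at 1.69; right, 3′ against 5′ reads by midpoint, where SNORD20 is called at -2.66, and the SNORD82 call at 2.37 turns to -1.22 with the RefSeq length.

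Reads on the opposite strand, whose last position lies below the first, were counted apart. SNORD20 had 6, 3 and 7 of them in libraries 1, 2 and 3, or 5.61%, 6.38% and 6.80% of all its reads. The 95% intervals were 2.09% to 11.8%, 1.34% to 17.5% and 2.78% to 13.5%. SNORD82 and SNORA75 had 0 in every library, which allows up to 1.85%, 1.96% and 1.51% of SNORD82 reads and 13.0%, 12.5% and 7.69% of SNORA75 reads, taking 3 counts as the floor. SNORD20 thus held 16 of the 30 opposite-strand reads of the series (53.3%, 95% interval 34.3% to 71.7%), the rest lying on 5 other snoRNAs, led by SCARNA9 with 6 reads. In the deposited table of the series, the count of 107 for SNORD20 in library 1 includes these reads, of which 101 were sense.

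All 16 opposite-strand reads of SNORD20 lay between positions 52 and 72 (chr2:231456452-231456472) and were 19 to 21 nt long. The span from 52 to 72 itself had 3, 2 and 6 reads, 11 in all, and each of 5 shorter spans had 1. Position 72 is the first base of the last CTGA, so the stretch sits where a box C/D snoRNA pairs with its target. Of the sense short reads only 3 began at position 45 or later. The stretch and the opposite-strand sequence are shown because the leading span has the limits of a run that SNORD20 shares with a pseudogene transcript.
SNORD20, 52 to 72: TTCCTCTAGATAGTCAAGTTC
Opposite strand: GAACTTGACTATCTAGAGGAA
Among GENCODE 29 transcripts the SNORD20 stretch occurred in 2, SNORD20 itself and AC010970.1, a processed pseudogene of 1848 bases. That pseudogene overlaps RNA18SP2, a pseudogene of 18S rRNA in RefSeq, over 1847 bases. The longest run of bases that SNORD20 shares with it was exactly the 21 bases from 52 to 72, and the next longest outside that run had 8. GENCODE gives this transcript in the orientation that carries the SNORD20 letters, and 0 transcripts carry the opposite-strand letters. SNORD20 is known for a long stretch complementary to 18S rRNA. The sequence of 18S rRNA was not used here, and from which RNA these reads came was not tested.

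The same measures were taken for snoRNAs in introns of other genes of nucleolar proteins: NOP56 and NOP58 (box C/D core proteins), GNL3 (nucleostemin), DKC1 (dyskerin, the pseudouridine synthase) and WDR43. Of 15 symbols 13 had reads under that name. SNORD69 of GNL3 had the highest mean share, 2.31% ± 0.40, followed by SNORD11 of NOP58 with 0.661% ± 0.13, SNORD92 of WDR43 with 0.307% ± 0.032 and SNORD70 of NOP58 with 0.286% ± 0.055 (SD, n = 3 each). In the size test 9 were tested, SNORD11 (1.04 ± 0.31) and SNORD57 (1.94 ± 0.45) had more short reads and SNORD69 (-1.57 ± 0.34) fewer (log2, SE), with a list median of -0.46 against -0.06 over all 125. These 3 of 9 are near the 33.6% of all snoRNAs tested that passed in either direction. In the side test 6 were tested, SNORD11 (1.30) and SNORD70 (2.23) had more 3′ and SNORD57 (-2.43) and SNORD69 (-2.71) more 5′ reads (log2), with a median of 0.03 against -0.75 over all 108. These 4 of 6 equal the 66.7% of all snoRNAs tested that passed in either direction. SNORD57 was named after its values had been seen.

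Likeness of read length was measured as the total variation distance between distributions of span over snoRNA length in 10 bins, averaged over 3 libraries, against 124 other snoRNAs. SNORD20 was nearest to SNORD65 (0.129) and SNORD61 (0.139), with a median distance of 0.236. SNORD82 was nearest to SNORD88C (0.151) and to the entry HBII_95B (0.174), with a median of 0.454. Length here was the highest position seen, so the SNORD82 distances depend on that choice, and no other length was tried. SNORA75 was nearest to SNORA64 (0.255) and SNORA27 (0.310), both of the box H/ACA class, with a median of 0.493.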

How the data were processed

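Per the labels, RNA of HEK293 cells was extracted with phenol and chloroform, then beads were used to enrich small RNA, and an Ion Total RNA-Seq Kit gave the libraries. The deposited files of the authors hold raw counts, per the file headers: reads per snoRNA entry, read length, first and last position. Per the submitters' processing notes, the genome build was GRCh38.p10. The sources used here do not give the aligner, trimming or filters. Another deposited table of counts was used for library 1 only, leaving unused 2 columns that could be matched to no sample. Of 260 entries 236 were named by RefSeq symbol or synonym (GRCh38.p14, names and lengths), 12 by class prefix and number, and 12 kept the file's name, giving 259 snoRNAs. Sequences and positions came from GENCODE 29 on GRCh38.

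The length of a snoRNA was the highest position seen. edgeR 4.0.16 tests (R 4.3.3) used snoRNAs with at least 10 sense counts in every library (in the side test, placed counts), with Benjamini-Hochberg adjustment at 0.05 over all of them. Library was the block because both classes of reads were counted in the same library. The side test used 1 library size per library. DESeq2 1.42.0 was an alternative. On counts simulated with a dispersion of 0.1, the size test on 125 snoRNAs recovered 77.5% of 4-fold differences (5.49% of calls false) and the side test on 108 recovered 75% (1.96% false). That dispersion was set rather than estimated from these data, and recovery was pooled over snoRNAs of low and high counts. The rates therefore need not hold for the members. Ratios between members used a pseudocount of 0.5. Python 3.11.15, pandas 2.3.3, SciPy 1.17.1 and matplotlib 3.10.9 were used.

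The members and lists were chosen with earlier results of these data known. Named were the 3 members, their 3 leading spans and leading short fragment, the 4 most abundant snoRNAs of other nucleolar protein genes and the 2 nearest in read length.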

Additional observations from a re-analysis of the deposited data

Results flagged for a closer look

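The 16 opposite-strand reads of SNORD20, 6, 3 and 7 in the 3 libraries, lie outside the sense counts that all levels, lengths and sides above were computed from, and they are more than the floor of 3 counts.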

How the results depend on the processing

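Of 196 recomputed values 152 kept their direction, side of the threshold or size. A level or share counted as kept when it moved by less than its SD over the libraries. Leaving out a library cannot move such a mean that far, so those values were kept by construction. The full-length shares of SNORD20 and SNORA75 also could not change with the RefSeq length or observed span, which equal the length used. The count of 152 is therefore no measure of robustness. With each distinct fragment counted once, the levels were 0.612% for SNORD20 and 0.373% for SNORA75, the short shares 28.4% for SNORD20 and 30.8% for SNORD82, the 20 to 24 nt share of SNORD82 5.47%, and the full-length shares 42.9%, 23.3% and 24.2% for SNORD20, SNORD82 and SNORA75. SNORA75 took 2.68% of box H/ACA counts. The short share of SNORD20 was 26.2% up to 50 nt. That of SNORD82 was 16.9% with ungapped reads, 6.80% up to 30 nt and 18.2% up to 50 nt, and its full-length share 9.54% with the RefSeq length and 75.1% with the observed span (added after seeing the data).

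In the size test, 1 library size for both classes gave log2 ratios of -2.24, -2.47 and -0.81 for SNORD20, SNORD82 and SNORA75, and the first pair passed toward fewer short reads (edgeR adjusted p = 0.00105 and 2.6e-07). SNORD82, not called in any fit with TMM, turned to -0.38 (up to 30 nt), -0.050 (up to 50 nt), -0.23 (no filter) and -0.0069 (no replicate block). Without 1 library the values ranged from -0.33 to 0.66 for SNORD20, -0.16 to 0.45 for SNORD82 and 1.52 to 2.01 for SNORA75, whose call was lost without library 2. Over all snoRNAs 24 had more and 18 fewer short reads. Without 1 library these were 14 to 24 and 2 to 13, with 1 library size 4 and 97, 11 fewer up to 30 nt, and 33 fewer with no filter.

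In the side test SNORD82 turned to -0.14 with read ends, -0.64 with reads spanning at most 50%, -1.22 with the RefSeq length and -0.81 with reads up to 40 nt (added after seeing the data). SNORA75 passed with reads spanning at most 50% (1.79) but not with reads up to 40 nt (1.92, edgeR adjusted p = 0.222), and without 1 library its side ratio ranged from 0.43 to 1.61. The 29 calls toward 3′ and 43 toward 5′ became 14 and 27 with read ends, 10 and 12 with reads spanning at most 50%, and 14 and 17 with reads up to 40 nt. The replicate block changed no call of the members, with -2.66, 2.37 and 1.21 without it for SNORD20, SNORD82 and SNORA75 in the side test. The low counts of SNORA75, 23 to 39 a library, limit its shares. Except where said, the causes of these changes were not tested.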
